A study of Mus musculus with 6 samples.

Results

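The syndecans and glypicans are the core proteins of cell surface heparan sulfate proteoglycans, and the 10 mouse genes of both families (*Sdc1* to *Sdc4* and *Gpc1* to *Gpc6*) were taken by gene name from a bulk RNA-seq comparison of mouse dorsal root ganglion and neurofibroma tissue. All 10 were among the 24062 genes with counts and all 10 passed the filter on low counts, which 15652 genes passed. The libraries came from 6 mice on a C57BL/6-I129 background, 3 with the genotype Nf1fl/fl;DhhCre and 3 labelled Rx1flfl;Rx3fl/fl;DhhCre, which are called the libraries labelled double knockout here. Floxed *Nf1* is missing from the genotype label of the second group, but the protocol and the methods of the study give it, so both groups were bred to lose *Nf1* in cells that express Cre and differed in floxed *Runx1* and *Runx3*. Cre was driven by *Dhh*, a gene of the Schwann cell (SC) lineage, and cells outside that lineage were meant to keep intact alleles, which was not tested. The tissue label was dorsal root ganglion (DRG) for the first group and neurofibroma tumor for the second, while the methods describe DRG/tumors for both. The labels name no treatment, and ages are not given in the sources used here.

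A syndecan spans the membrane once and carries heparan sulfate chains on its outer part, with a short cytoplasmic tail that binds PDZ proteins and, in *Sdc4*, protein kinase C alpha. A glypican is held in the outer leaflet by a lipid anchor and has no cytoplasmic part. Their chains bind growth factors, morphogens, collagens and fibronectin and present them to receptors, and proteases or lipases can release the core proteins from the surface. In peripheral nerve, syndecans and glypicans of SCs are known as receptors for matrix proteins, among them type V collagen, and fibroblasts carry several of them too.

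The total count per library was 12439296 to 16682194, so that 3 counts made 0.18 to 0.241 CPM (the count of a gene relative to the scaled total of its library). *Runx1* had 131, 141 and 172 CPM in Nf1fl/fl;DhhCre against 84.0, 78.9 and 185 CPM in the second group, so replicate 3 of the second group was above the first. The tissue also holds cells meant to keep intact *Runx1* and *Runx3*, so these levels alone do not test the label of a library. *Runx3* had 19.9, 15.1 and 29.9 CPM against 13.6, 10.3 and 12.2 CPM, and by this gene every library of the second group, replicate 3 included, was below the first. The same held for 20.5% of all genes tested. The log2 fold changes of *Runx1* and *Runx3* were -0.44 and -0.79 (limma-voom adjusted p = 0.370 and 0.104), so neither had an adjusted p below 0.05. The labels disagree on whether replicate 2 or 3 of that group was sequenced in another run. Replicate 2 of each group held skeletal muscle transcripts, with summed markers at 2628 and 11390 CPM against 4.94 to 70.5 CPM in the other libraries. By *Xist* and *Ddx3y*, 2 of 3 Nf1fl/fl;DhhCre mice and 1 of 3 labelled double knockout were female. No source says whether the mice of a group shared a litter, so the p-values measure the spread between these samples.

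Transcripts of 9 of the 10 genes were lower in every library labelled double knockout than in every Nf1fl/fl;DhhCre library, and only *Gpc5* was higher without overlap. Among all genes tested, 20.5% were lower and 21.8% higher without overlap. Differentially expressed genes (DEGs) were those with an adjusted p below 0.05 from limma-voom (Benjamini-Hochberg) and a change of more than 2-fold. By this rule 5 members fell, the syndecans *Sdc1*, *Sdc2* and *Sdc4* and the glypicans *Gpc4* and *Gpc6*, where 5.36% of all genes tested fell. *Gpc5* alone rose, where 8.03% of all genes rose. *Sdc3*, *Gpc1* and *Gpc3* had adjusted p-values below 0.05 but differed by less than 2-fold, and *Gpc2* did not pass. The median log2 fold change of the 10 members was -1.05, against 0.02 over all genes tested. In bulk tissue, fewer cells of a type and less RNA per cell cannot be told apart.

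**Figure D1:**
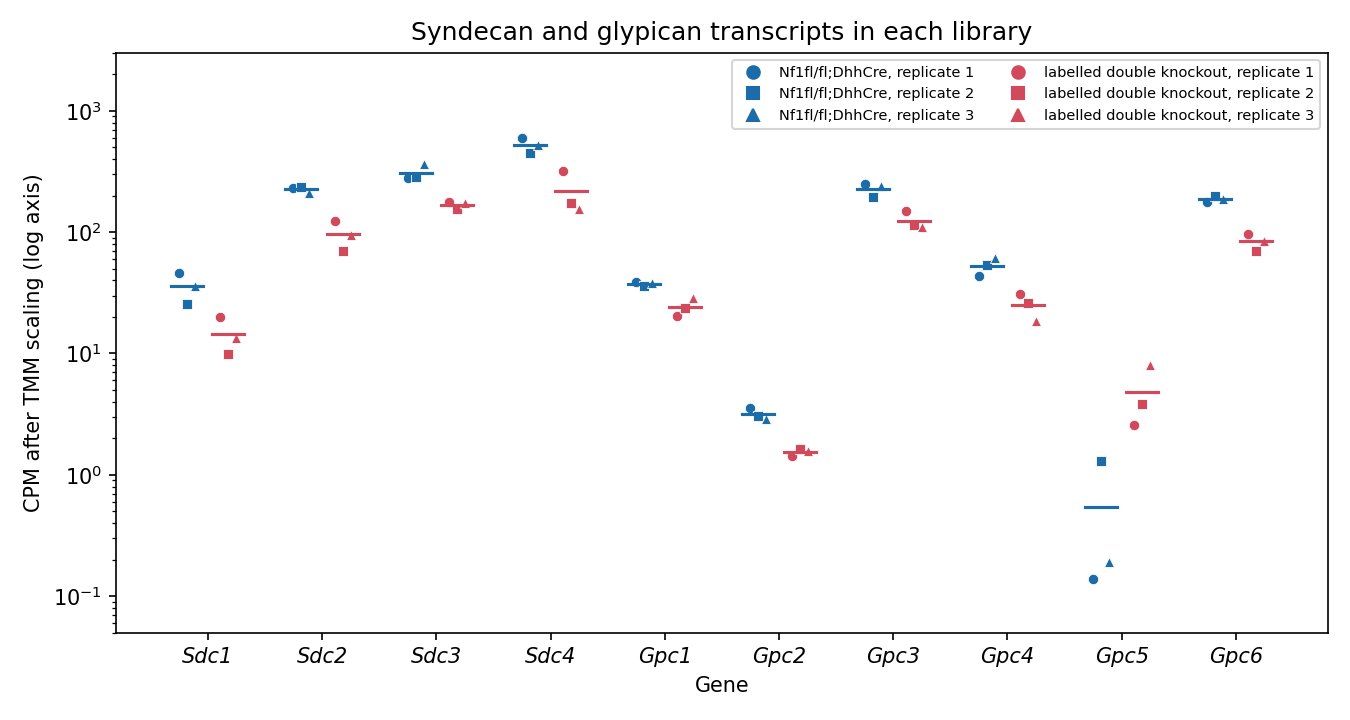
Level of each syndecan and glypican in each library, in CPM after TMM scaling on a log axis, with blue symbols for Nf1fl/fl;DhhCre, red symbols for the libraries labelled double knockout and bars at the group means. The red symbols lie below all blue ones for 9 genes and above them for *Gpc5*.

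*Sdc4* (chr2:164424247-164443887 of GRCm38, minus strand), the syndecan of focal adhesions, was the member with the most negative limma-voom log2 fold change, although its mean fell 2.43-fold and that of *Sdc1* 2.46-fold. Its level was 602, 453 and 528 CPM in the Nf1fl/fl;DhhCre libraries and 318, 176 and 157 CPM in those labelled double knockout. Replicate 1 was the highest library of each group and still left the groups apart. The means were 528 ± 74.5 and 217 ± 88.0 CPM (SD, n = 3 each), and the log2 fold change was -1.35 (SE 0.26, limma-voom adjusted p = 0.0176). *Sdc2* (chr15:32920723-33034935, plus strand), the syndecan best known from fibroblasts and other mesenchymal cells, was at 230.3, 235 and 212 CPM against 124, 70.1 and 94.1 CPM. Its Nf1fl/fl;DhhCre libraries lay close together, and the libraries labelled double knockout spread more widely below them. The log2 fold change of *Sdc2* was -1.27 (SE 0.20, limma-voom adjusted p = 0.0113).

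*Sdc1* (chr12:8771323-8793715, plus strand), the syndecan of epithelia and plasma cells, was the lowest member of its family and was at 46.0, 25.4 and 35.7 CPM against 20.2, 9.95 and 13.3 CPM. In both groups replicate 1 was highest and replicate 2 lowest, and the highest library labelled double knockout came near the lowest Nf1fl/fl;DhhCre library. The log2 fold change of *Sdc1* was -1.31 (SE 0.32, limma-voom adjusted p = 0.0324). *Sdc3* (chr4:130792537-130826319, plus strand), also called N-syndecan and known from neurons and SCs, was at 280.1, 286 and 362 CPM against 177, 154 and 175 CPM. The groups were apart with little spread in the second. Its log2 fold change of -0.87 (SE 0.14, limma-voom adjusted p = 0.0124) was below 2-fold.

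*Gpc6* (chr14:116925315-117976544, plus strand), a glypican of mesenchymal and skeletal tissue, had the smallest adjusted p of the members. Its level was 179, 201 and 189 CPM in the Nf1fl/fl;DhhCre libraries and 97.3, 69.5 and 84.8 CPM in those labelled double knockout. The gap between the groups was the widest among the lower members, the highest library of the second group being 45.6% below the lowest of the first. The log2 fold change was -1.19 (SE 0.15, limma-voom adjusted p = 0.00845). *Gpc4* (chrX:52053021-52165252, minus strand), a coreceptor for fibroblast growth factor and Wnt ligands, was at 43.4, 53.4 and 61.2 CPM against 30.7, 26.2 and 18.4 CPM. Both groups spread by a similar amount and did not overlap. The log2 fold change of *Gpc4* was -1.10 (SE 0.23, limma-voom adjusted p = 0.0208).

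*Gpc3* (chrX:52272426-52613950, minus strand), the glypican whose loss causes an overgrowth syndrome in humans, lies 107 kb from *Gpc4* with 0 protein-coding genes between them. It was at 249, 195 and 240.3 CPM against 150.2, 115 and 109 CPM, with no overlap. Its log2 fold change was -0.88 (SE 0.17, limma-voom adjusted p = 0.0169), below 2-fold. *Gpc1* (chr1:92831645-92860779, plus strand), a glypican of neurons and SCs, was at 39.0, 35.9 and 38.3 CPM against 20.2, 23.8 and 28.9 CPM. It had the narrowest gap, the nearest libraries of the groups differing by 19.6%, and the smallest decrease, a log2 fold change of -0.64 (SE 0.17, limma-voom adjusted p = 0.0398). Of its exon bases, 18.9% lie within *Ankmy1* on the other strand, which had at most 6 counts in any library.

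*Gpc2* (chr5:138273655-138280005, minus strand), the glypican of developing neurons, was scarce, with 51, 51 and 45 counts in the Nf1fl/fl;DhhCre libraries and 18, 20 and 24 counts in those labelled double knockout. These made 3.54, 3.04 and 2.89 CPM against 1.43, 1.65 and 1.58 CPM. Neither group spread widely and they did not overlap. Its log2 fold change was -0.99 (SE 0.35, 95% interval -1.81 to -0.17, limma-voom adjusted p = 0.0880). Of its exon bases, 55.6% are shared with another annotated gene on the same strand, which is not among the genes counted, and whether the counting used strand is not stated.

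*Gpc5* (chr14:115092215-116525179, plus strand), the neighbour of *Gpc6* at a distance of 400 kb and a glypican of neurons and mesenchyme, was near the limit of counting in 2 of 3 Nf1fl/fl;DhhCre libraries. It had 2, 22 and 3 counts in these libraries and 32, 47 and 122 counts in those labelled double knockout. These made 0.139, 1.31 and 0.192 CPM against 2.55, 3.87 and 8.05 CPM, with replicate 2 the highest of the first group and replicate 3 the highest of the second. The counts of each group, summed and set against the scaled totals, gave a ratio of 8.74 (exact 95% interval 5.83 to 13.6, which covers counting error only). The log2 fold change was 3.53 (SE 0.99, 95% interval 1.20 to 5.87, limma-voom adjusted p = 0.0470). With sex as a covariate it was 2.65 (limma-voom adjusted p = 0.0655), and without replicate 3 labelled double knockout 3.03 (limma-voom adjusted p = 0.0713), neither past the threshold. Nf1fl/fl;DhhCre replicate 2 held 22 of the 27 counts of its group, and without it the log2 fold change was 4.56 (limma-voom adjusted p = 0.0572).

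**Figure D2:**
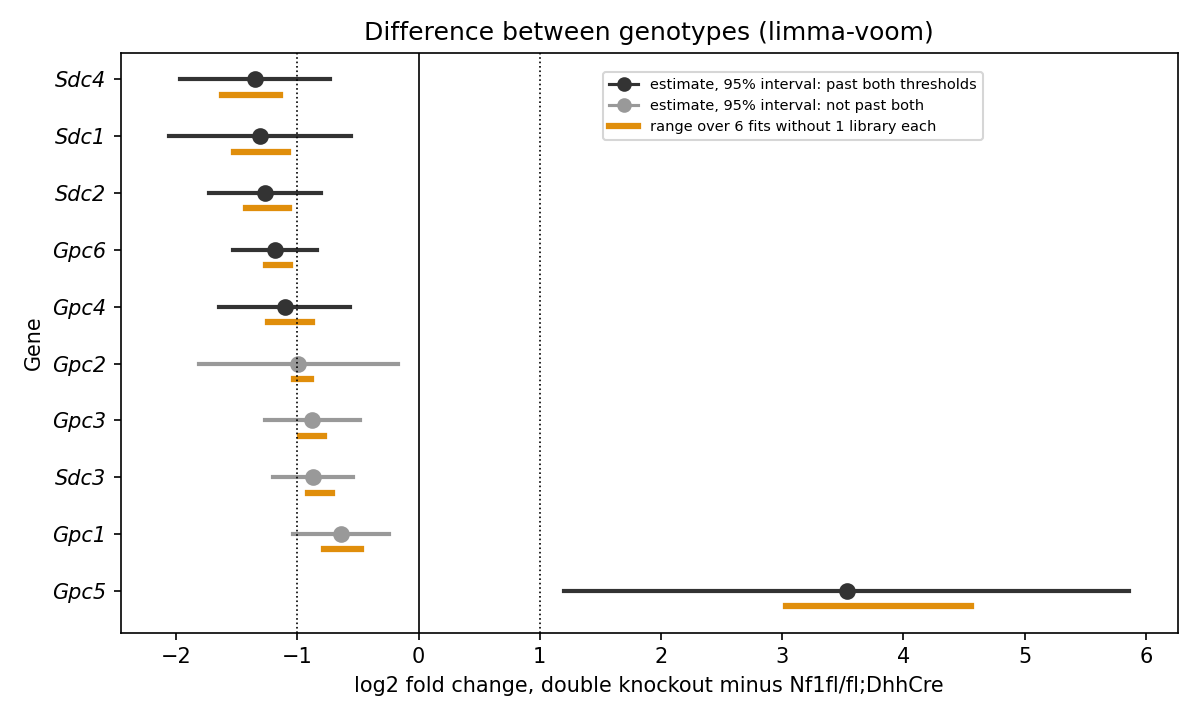
Log2 fold change of each gene, labelled double knockout minus Nf1fl/fl;DhhCre, with its 95% interval from limma-voom (dark where the gene was a DEG, grey where it was not) and, in orange, the range over 6 fits that each left out 1 library. Dotted lines mark 2-fold. The 9 lower genes lie between -1.35 and -0.64 and *Gpc5* at 3.53, with the widest interval.

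The direction of all 10 members held whichever of the 6 libraries was left out, but the number of members that fell depended on the library. It was 1 (*Gpc6*) without Nf1fl/fl;DhhCre replicate 1, 2 (*Sdc2* and *Gpc6*) without Nf1fl/fl;DhhCre replicate 3 or without replicate 2 labelled double knockout, and 3 (*Sdc2*, *Sdc4* and *Gpc6*) without replicate 3 labelled double knockout. It stayed at 5 without either of the remaining libraries. The share of all genes that fell moved too, to 1.13%, 6.45% and 3.12% without Nf1fl/fl;DhhCre replicates 1, 2 and 3, and to 3.59%, 2.04% and 2.96% without replicates 1, 2 and 3 labelled double knockout. *Gpc6* was a DEG in all 6 of these fits and *Gpc5* in 1, that without replicate 1 labelled double knockout.

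Among the 9 lower genes, replicate 1 was the highest of the libraries labelled double knockout for 7, the exceptions being *Gpc1* and *Gpc2*, for which it was the lowest. By *Xist* and *Ddx3y*, replicate 1 was also the female library of that group. With sex as a covariate the same 5 members fell. The log2 fold change was then -1.14 for *Sdc4* and -1.06 for *Sdc1*, against -1.35 and -1.31 without it. Summed markers of fibroblasts (8 genes, among them *Col1a1*, *Pdgfra* and *Dcn*) were at 9205 to 9868 CPM in the Nf1fl/fl;DhhCre libraries, against 5646, 3418 and 3810 CPM in replicates 1 to 3 labelled double knockout. By limma-voom all 8 fibroblast markers had a negative log2 fold change, with a median of -1.04, and 4 fell, where 5.36% of all genes tested fell. *Dpt* and *Pi16* overlapped between the groups. The mean of *Dpt* was 22.05 CPM in Nf1fl/fl;DhhCre and higher, at 25.95 CPM, in the libraries labelled double knockout. Summed macrophage markers were at 900.2 to 1822 CPM against 140 to 356 CPM, and 6 of 8 fell. Summed perineurial markers were at 741 to 1418 CPM against 359.9 to 592 CPM, and 1 of 4 fell, *Cldn1* (log2 fold change -1.99, limma-voom adjusted p = 0.0133). This gene alone was at 680, 1015 and 463 CPM against 233, 117 and 185 CPM. *Slc2a1*, *Itgb4* and *Lypd2* overlapped between the groups, with log2 fold changes of -0.13, -0.16 and 1.44. Summed T cell markers were at 11.1, 11.6 and 42.1 CPM against 3.04 to 5.66 CPM, and by limma-voom 0 of 4 tested fell (1, *Cd8a*, had an unadjusted p below 0.05). Summed SC markers (6 genes, among them *Sox10*, *Erbb3* and *Cdh19*) were at 859.6 to 964 CPM against 1142 to 1532 CPM, and 2 of 6 rose, *S100b* and *Ngfr*, while the median log2 fold change of the 6 was 0.03 and 3 of 6 were negative. None of these markers was at 0 in all libraries, and *Adgre1* was not analysed here. The part of these cell types in the lower syndecans and glypicans was not tested.

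Several marker lists were higher along with *Gpc5*. Summed markers of sensory neurons (12 genes, among them *Rbfox3*, *Prph* and *Scn9a*) were at 1366, 2589 and 1273 CPM in Nf1fl/fl;DhhCre replicates 1 to 3 and at 6303, 7281 and 14210 CPM in those labelled double knockout, and 12 of 12 rose. The highest library of each group by these markers was also the highest for *Gpc5*. Summed myelin markers were at 4780 to 5624 CPM against 10140 to 13510 CPM, and 7 of 7 rose. The SC sums given above were also higher without overlap. Summed satellite glia markers overlapped, at 687.5 to 1155 CPM against 578.5 to 1110 CPM, with *Fabp7* higher and *Kcnj10* lower (log2 fold changes 1.87 and -1.25, limma-voom adjusted p = 0.0113 and 0.0138) and *Glul* overlapping. Of the 4 epithelial markers, *Cdh1* rose (log2 fold change 1.75, limma-voom adjusted p = 0.00598), *Epcam* had a mean of 2.38 CPM against 0.106 CPM and was not tested, and *Krt5* and *Krt14* were at 0 in all libraries. The part of these cells in the *Gpc5* difference was not tested.

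Likeness of pattern was measured as the root mean square difference of centred log2 of CPM plus 0.5 over the 6 libraries. This measure includes the difference between the groups. The added 0.5 exceeds the 0.139 and 0.192 CPM of *Gpc5* in Nf1fl/fl;DhhCre replicates 1 and 3. It therefore flattens the pattern of *Gpc5*, and distances from this gene depend on it. Among the 10 members, *Sdc2* and *Gpc6* were closest, at 0.119, followed by *Gpc1* and *Gpc2* at 0.167 and *Sdc3* and *Gpc3* at 0.186. The least alike of the 9 lower genes were *Sdc4* and *Gpc1*, at 0.579. With 0.5 added, each of the other members was at 1.62 or more from *Gpc5*. Among the 10221 other genes whose average log2 CPM reached 3, those closest to *Sdc4* were *Tram2* at 0.0918, *Ephb2* at 0.110 and *Fap* at 0.139. *Tram2* was at 64.7, 47.4 and 59.6 CPM against 31.8, 20.6 and 18.5 CPM, the same order of libraries as *Sdc4*. With 0.5 added, the genes closest to *Gpc5* were *D10Bwg1379e* at 0.0772, *Prdm12* at 0.106 and *Ralyl* at 0.108. Their limma-voom log2 fold changes were 2.32, 2.47 and 2.53, below the 3.53 of *Gpc5*, a value from low counts. Whether they are closest without the added 0.5 was not tested. *Prdm12*, a transcription factor of nociceptive sensory neurons, was at 11.8, 40.2 and 15.1 CPM against 71.4, 101 and 174 CPM.

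To compare levels between genes, CPM was divided by merged exon length in kilobases. On this scale *Sdc4* was the most abundant member in both groups, at 207 in Nf1fl/fl;DhhCre and 85.1 in the libraries labelled double knockout. *Gpc3* followed at 84.7 and 46.4. In Nf1fl/fl;DhhCre the order continued with *Sdc2* at 64.0, *Sdc3* at 51.7, *Gpc6* at 29.5, *Gpc4* at 19.9, *Sdc1* at 9.37, *Gpc1* at 7.31, *Gpc2* at 0.738 and *Gpc5* at 0.123. The libraries of neighbours in this order overlapped for *Sdc2* and *Sdc3* and for *Sdc1* and *Gpc1*. In the libraries labelled double knockout *Gpc5* stood above *Gpc2*, at 1.08 against 0.364, without overlap. There the neighbours that overlapped were *Sdc3* and *Sdc2*, *Gpc6* and *Gpc4*, and *Gpc1* and *Sdc1*.

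Summed per length, syndecans were at 332 ± 31.1 in Nf1fl/fl;DhhCre and 144 ± 43.6 in the libraries labelled double knockout (SD, n = 3 each), a 2.30-fold lower mean. Glypicans were at 142 ± 9.48 and 75.1 ± 10.7 (SD, n = 3 each), 1.90-fold lower. *Sdc4* made 65.6%, 59.5% and 61.5% of syndecan transcripts in Nf1fl/fl;DhhCre and 64.1%, 58.8% and 50.9% in those labelled double knockout, and the groups overlapped. *Gpc3* made a mean of 59.4% of glypican transcripts in the first group and 61.6% in the second, again with overlap. Only *Gpc5* had a share that did not overlap between the groups, at 0.0215%, 0.224% and 0.0288% against 0.655%, 1.25% and 2.64%.

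**Figure D3:**
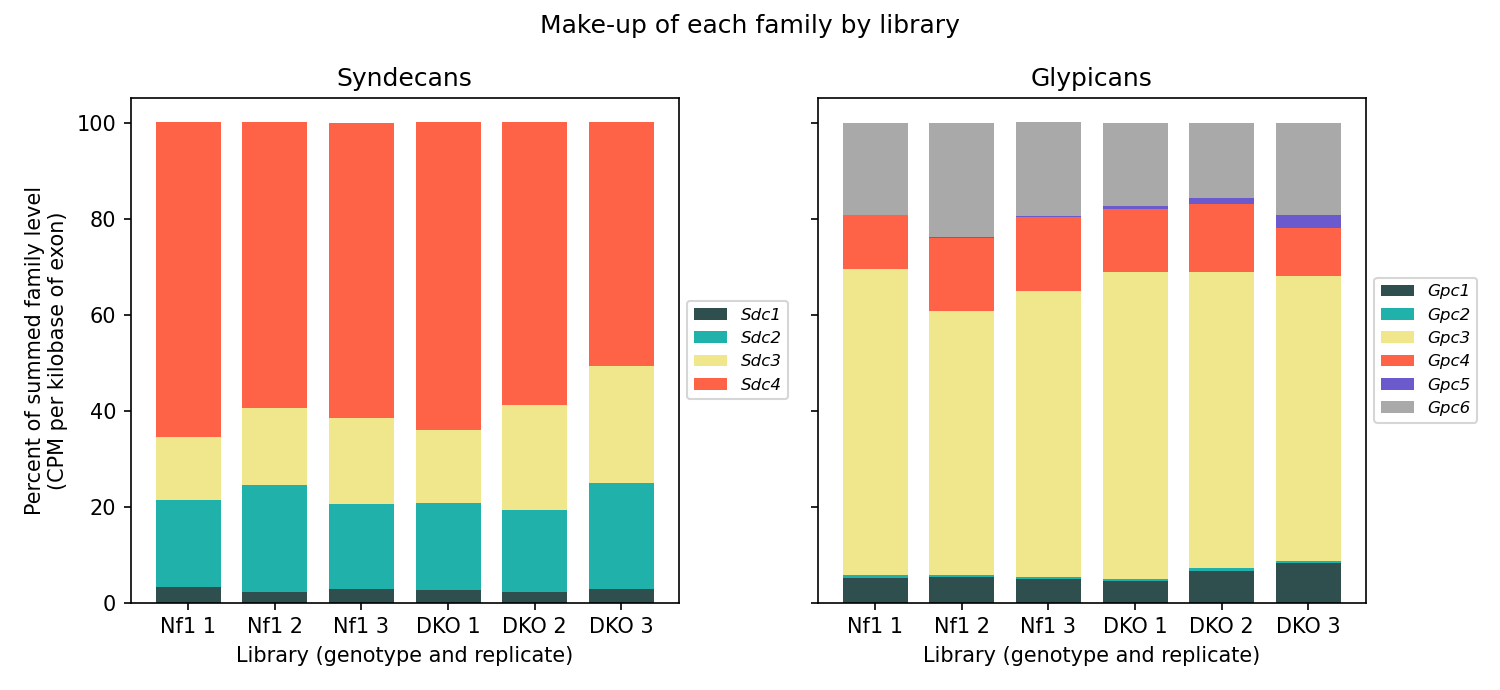
Share of each gene in the summed level of its family, in percent of CPM per kilobase of exon, with 1 bar per library (Nf1 for Nf1fl/fl;DhhCre and DKO for the libraries labelled double knockout). *Sdc4* and *Gpc3* take the largest share of their family in all 6 libraries, and *Gpc5* is visible mainly in the DKO bars, at up to 2.64%.

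Because the design deletes RUNX transcription factors, which bind DNA at a core sequence of the form TGTGG, the 300 bases around the start of each gene were searched for it on both strands. RefSeq promoter windows (build GRCm38.p6, 250 bases before to 50 after the start) were found for 7 of the 10 members. TGTGG or its reverse complement CCACA was in 6 of these 7, all but *Gpc4*, and in 55.9% of 32851 windows of the same length. The longer form TGTGGT, which contains it, was in 1 of the 7 (*Gpc2*) and in 16.8% of all windows. The paper also cites TGCGGT as a RUNX-binding consensus, which was not counted here over all windows. Its reverse complement ACCGCA stands in the windows of *Gpc3* and *Gpc4*, so *Gpc4* lacks the TGTGG form only. The 250 bases before the start are shown for the member with the highest level, which fell, and for the member that rose, *Sdc4* at chr2:164443189-164443438 (minus strand) and *Gpc5* at chr14:115091965-115092214 (plus strand), with TGTGG in capitals. Its first base lies 169 bases before the *Sdc4* start and 20 bases before the *Gpc5* start. The GENCODE span of *Sdc4* extends upstream of this RefSeq start through another annotated transcript.
Sdc4: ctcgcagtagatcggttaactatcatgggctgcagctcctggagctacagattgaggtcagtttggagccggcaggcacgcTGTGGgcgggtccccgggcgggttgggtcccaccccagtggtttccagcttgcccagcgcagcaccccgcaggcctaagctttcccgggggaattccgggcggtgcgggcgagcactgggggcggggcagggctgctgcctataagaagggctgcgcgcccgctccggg
Gpc5: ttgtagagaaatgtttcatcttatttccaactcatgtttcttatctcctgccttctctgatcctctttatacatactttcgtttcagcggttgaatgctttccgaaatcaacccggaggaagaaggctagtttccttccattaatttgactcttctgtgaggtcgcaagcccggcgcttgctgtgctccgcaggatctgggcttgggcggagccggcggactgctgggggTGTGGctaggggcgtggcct
A match of letters describes the window and is not a binding site, and both the gene that fell and the gene that rose have 1. The paper names *Sdc4*, and no other member, among genes it calls highly plausible direct targets of RUNX factors. It chose them by RUNX1 binding (ChIP-seq), open chromatin and the RNA-seq comparison used here, and reports their mRNA by qRT-PCR. It places most RUNX1 peaks farther from a start than the windows searched here. Binding was not tested here.

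Genes that make and edit heparan sulfate differed in both directions. The counts for each list below stand against 8.03% of all genes tested that rose and 5.36% that fell. Of 12 tested genes that start and elongate the chain, 2 fell and 0 rose, with a median log2 fold change of -0.22. These were *Xylt1*, which attaches the first sugar, at 11.7, 7.80 and 11.8 CPM against 5.50, 4.61 and 4.16 CPM (log2 fold change -1.11, SE 0.29, limma-voom adjusted p = 0.0380), and *Ext2*, a subunit of the chain polymerase. *Ext2* was at 56.0, 105 and 74.9 CPM against 45.1, 34.0 and 34.0 CPM (log2 fold change -1.03, SE 0.26, limma-voom adjusted p = 0.0334). Its partner *Ext1* differed by -0.69 (SE 0.15, limma-voom adjusted p = 0.0236), below 2-fold. Without each library in turn, *Ext2* was a DEG in 0 and *Xylt1* in 1 of 6 fits.

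Of 18 tested genes that modify the chain, 5 rose and 0 fell, with a median of 0.16. *Ndst4*, an N-deacetylase/N-sulfotransferase, was at 3.12, 4.59 and 2.37 CPM against 17.1, 19.8 and 31.9 CPM (log2 fold change 2.77, SE 0.41, limma-voom adjusted p = 0.0107). The other 4 were the 3-O-sulfotransferases *Hs3st2*, *Hs3st4* and *Hs3st5* and the 6-O-sulfotransferase *Hs6st2*, the last named after its values were seen. *Hs3st4* had 1 count over the Nf1fl/fl;DhhCre libraries and 111 over those labelled double knockout, a ratio of 130.0 (exact 95% interval 22.9 to 5190, counting error only). *Hs3st2*, *Hs3st5* and *Hs6st2* had log2 fold changes of 2.01, 2.28 and 1.86 (limma-voom adjusted p = 0.0377, 0.0326 and 0.0288). In the 6 fits without 1 library, *Ndst4* was a DEG in 5, *Hs3st4* and *Hs6st2* in 3, and *Hs3st2* and *Hs3st5* in 2. Replicate 3 labelled double knockout was the highest library for each of these 5 genes, as it was for *Gpc5* and the sensory neuron markers. The widely used *Ndst1*, at 168 to 191 CPM against 123 to 150 CPM, had a log2 fold change of -0.37 (limma-voom adjusted p = 0.0787).

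Of 10 tested genes that edit or degrade the chain, 2 fell and 0 rose, with a median of -0.79. Both were the extracellular 6-O-endosulfatases, which take sulfate groups off chains already at the cell surface. *Sulf1* was at 173, 296 and 166 CPM against 87.3, 68.9 and 75.1 CPM (log2 fold change -1.41, SE 0.25, limma-voom adjusted p = 0.0138). *Sulf2* was at 129, 154 and 118 CPM against 71.4, 60.9 and 60.0 CPM (log2 fold change -1.06, SE 0.15, limma-voom adjusted p = 0.0100). Neither overlapped between the groups. Heparanase (*Hpse*), which cuts the chain, was at 3.05, 3.81 and 8.40 CPM against 1.59, 1.73 and 1.25 CPM (log2 fold change -1.61, limma-voom adjusted p = 0.0864).

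Of 6 tested genes for enzymes that release core proteins from the cell, 2 fell and 0 rose, with a median of -0.91. *Mmp2*, a gelatinase, was at 484, 265 and 294 CPM against 80.3, 65.0 and 64.3 CPM (log2 fold change -2.27, SE 0.25, limma-voom adjusted p = 0.00764). *Mmp14*, a membrane-bound protease that activates *Mmp2* and sheds syndecans, was at 142, 105 and 119.9 CPM against 44.6, 30.3 and 42.0 CPM (log2 fold change -1.65, SE 0.19, limma-voom adjusted p = 0.00764). Both were DEGs in all 6 fits that left out 1 library. *Mmp9*, another gelatinase, was lower without overlap but did not pass (log2 fold change -1.28, limma-voom adjusted p = 0.132). The sheddases *Adam10* and *Adam17* differed by 0.64 and -0.54 (limma-voom adjusted p = 0.0346 and 0.0802), both below 2-fold.

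**Figure D4:**
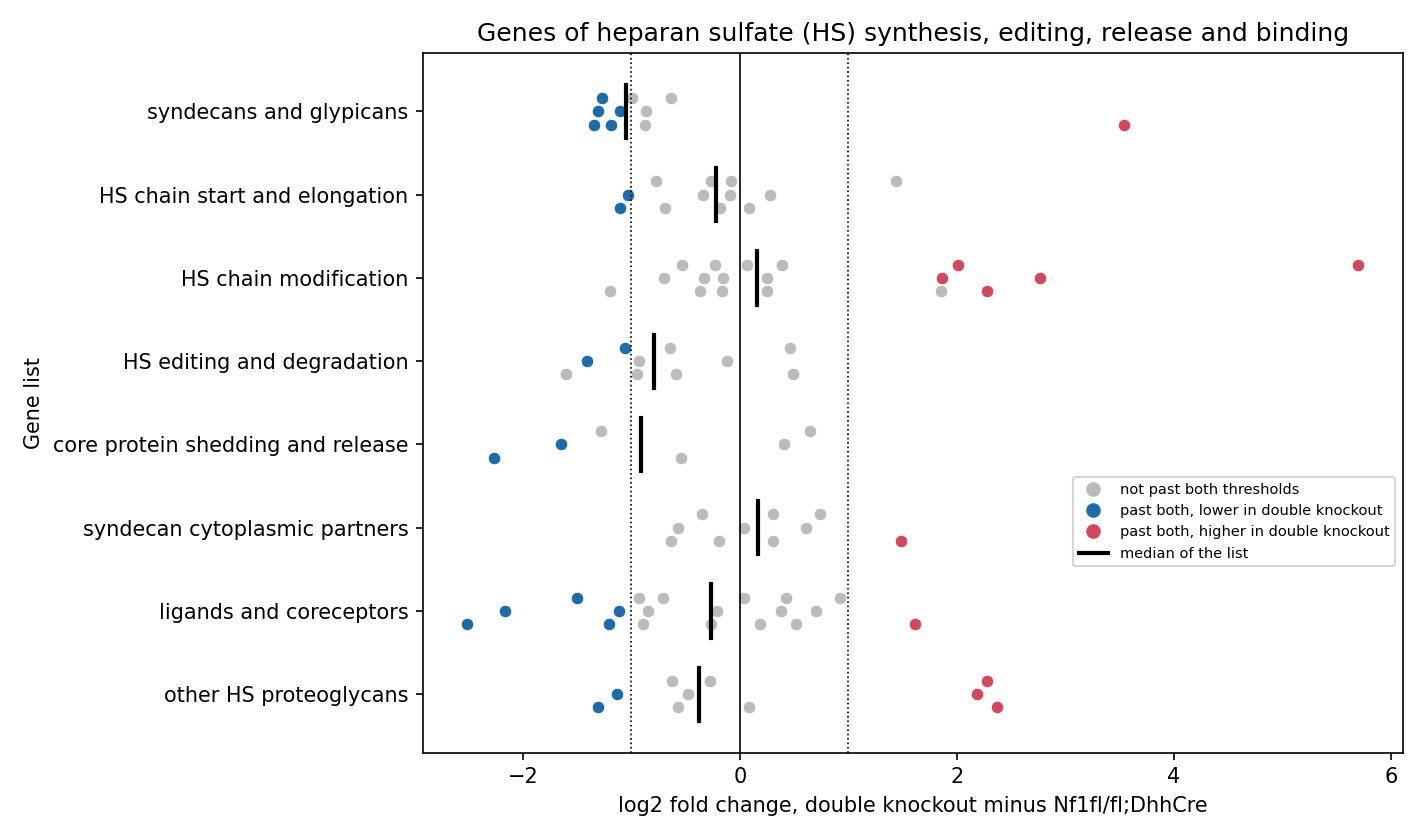
Log2 fold change of each tested gene, labelled double knockout minus Nf1fl/fl;DhhCre, for the syndecans and glypicans and for 7 lists of genes that act with them, with blue for DEGs that fell, red for DEGs that rose, grey for other genes and a black bar at each median. The median is -1.05 for the syndecans and glypicans and lies between -0.91 and 0.17 for the other lists.

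Inside the cell, 1 of 10 genes for partners of the syndecan tail rose, near the 8.03% of all genes, and 0 fell, with a median of 0.17. This was *Prkca*, the protein kinase C isoform that *Sdc4* binds, at 257, 337 and 212 CPM against 678, 669 and 891 CPM (log2 fold change 1.49, SE 0.20, limma-voom adjusted p = 0.00919). *Prkca* and *Sdc4* thus differed in opposite directions with no overlap of libraries in either. Syntenin (*Sdcbp*), the PDZ protein that binds all syndecans, was at 289 to 352 CPM against 346 to 477 CPM (log2 fold change 0.30, limma-voom adjusted p = 0.211).

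Of 19 genes for ligands and coreceptors, 5 fell and 1 rose, with a median of -0.27. The matrix glycoproteins *Tnc*, *Fn1* and *Thbs1*, which bind heparan sulfate, had log2 fold changes of -2.51, -2.17 and -1.50 (limma-voom adjusted p = 0.0111, 0.0121 and 0.0346). *Fn1*, fibronectin, was at 3183, 2203 and 3779 CPM against 1122, 443 and 588 CPM. The growth factor midkine (*Mdk*) and the receptor *Fgfr2* also fell, by 1.21 and 1.11 on the log2 scale (limma-voom adjusted p = 0.0342 and 0.0257), *Fgfr2* being named after its values were seen. Without each library in turn, *Thbs1* was a DEG in 2, *Mdk* in 0 and *Fgfr2* in 1 of 6 fits. *Thbs1* also did not pass in the quasi-likelihood test of edgeR (adjusted p = 0.0564). *Fgf1*, a growth factor whose receptors need heparan sulfate, rose from 286, 339 and 236 CPM to 660.4, 850.3 and 1167 CPM (log2 fold change 1.62, SE 0.23, limma-voom adjusted p = 0.0100). *Col5a1*, a chain of the type V collagen that nerve glypican and syndecan bind, differed by -0.93 (limma-voom adjusted p = 0.0229), below 2-fold, and *Col5a3*, another chain, overlapped (log2 fold change -0.21, limma-voom adjusted p = 0.471).

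Of 10 other heparan sulfate proteoglycans, 3 rose and 2 fell. The testicans *Spock1*, *Spock2* and *Spock3*, secreted proteoglycans known from the nervous system, rose by 2.37, 2.19 and 2.28 on the log2 scale (limma-voom adjusted p = 0.0111, 0.0147 and 0.0360). *Spock2* was at 202, 414 and 171 CPM against 794, 979 and 1738 CPM, and the highest library of each group was the one that was highest for *Gpc5*. The collagen *Col18a1* and serglycin (*Srgn*), a proteoglycan of blood cell granules, fell by 1.13 and 1.30 on the log2 scale (limma-voom adjusted p = 0.0127 and 0.0168). Perlecan (*Hspg2*), of the basement membrane, was at 987, 693 and 1141 CPM against 747, 485 and 581 CPM, with overlap (log2 fold change -0.63, limma-voom adjusted p = 0.0933). The median of the 10 genes was -0.38, and the fibroblast, macrophage, myelin and neuron markers given above moved with these lists too, their part not tested.

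Of the 23 DEGs of these 7 lists, *Mmp2*, *Mmp14*, *Prkca* and *Fgf1* were DEGs whichever library was left out. They were the only 4 that remained without Nf1fl/fl;DhhCre replicate 1, while 18 remained without replicate 2 and 13 without replicate 3 of that group. Without replicates 1, 2 and 3 labelled double knockout, 19, 12 and 15 remained. *Tnc*, *Fn1*, *Sulf1*, *Ndst4*, *Spock1* and *Spock2* were lost only without Nf1fl/fl;DhhCre replicate 1.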

How the data were processed

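RNA from 6 mouse DRG/tumor samples was sequenced, 1 library per mouse. The authors aligned reads to the mouse genome (mm10) with TopHat and deposited raw counts per gene from featureCounts, without normalization. Their annotation, the strand setting and how multimapping reads were handled are not given in the sources used here. Replicate numbers were given here in the order of the labels. In each group, 2 libraries carry one mouse number in the title and the number of the other in the deposited column, so the mouse behind a library is uncertain and its genotype label is the same either way. Replicates differed by more than sampling noise and none was a copy of another.

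In R 4.3.3, genes were filtered with filterByExpr (minimum count 10, minimum total 15) in edgeR 4.0.16, given TMM factors and tested by limma-voom (limma 3.58.1) with genotype as the only term, over all genes, with Benjamini-Hochberg adjustment. Levels per length used merged exons of GENCODE M21 (GRCm38), and likeness added 0.5 to CPM before taking log2. The steps were tested on simulated data. Alternatives were DESeq2 1.42.0, its size factors, the quasi-likelihood test of edgeR, library size only, other filters, sample quality weights, sex as a covariate, and each library left out. The members and gene lists were chosen with earlier results of these data known. Named genes were all 10 members and, in each list, up to 4 DEGs per direction with the largest change, plus genes needed for a role. A marker of the SC list is not reported here and is in no sum. Figures were drawn with matplotlib 3.10.9.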

Additional observations from a re-analysis of the deposited data

How the results depend on the processing

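No paired analysis was possible because the replicate numbers were given here in the order of the labels and link no mice. The direction of every member held in the 8 alternatives that kept all libraries and in the 6 that left out 1. Leaving out each library gave 1 to 5 members that fell and 0 to 1 that rose, and sex as a covariate gave 0 that rose. *Gpc4* was below 2-fold with sample quality weights (log2 fold change -0.92), and *Gpc2* fell in DESeq2 alone. For genes that start and elongate the chain, 0 to 1 fell without each library, and 1 with sample quality weights or with sex as a covariate. For editing and degradation, 0 to 3 fell without each library and 1 with sample quality weights. For ligands and coreceptors, 0 to 5 fell and 1 to 2 rose without each library, and 2 rose in DESeq2. For other proteoglycans, 0 to 2 fell and 0 to 3 rose without each library, and for chain modification 0 to 5 rose. Over all genes, 2096 were DEGs, 2907 in DESeq2, 362 without Nf1fl/fl;DhhCre replicate 1 and 1595 without replicate 3 labelled double knockout. The cause of these differences was not tested. Depth limits *Gpc5*, *Gpc2* and *Hs3st4*, whose counts were low.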
